A study of Mus musculus with 8 samples.

Results

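The genes described here are the 4 Janus kinases of the mouse, Jak1, Jak2, Jak3 and Tyk2, and the 5 STAT factors that are not chiefly tied to interferon, Stat3, Stat4, Stat5a, Stat5b and Stat6. These 9 genes were matched by Ensembl identifier among 55487 identifiers in the table, and all of them were among the 15411 genes tested. The families were chosen by the measured fall of Jak2 and Stat4 between the same groups of libraries, so the differences of the members are given as a description and carry no test. RNA was sequenced from bone marrow-derived dendritic cells (BMDC), grown in GM-CSF at 20 ng/ml for 10 days from the marrow of wild-type C57BL/6J females aged 6 to 8 weeks. The comparison was between 4 libraries of untreated BMDC and 4 libraries of BMDC-fer, which are BMDC sorted for carrying cargo after 4 h with dying cells. The cargo was Jurkat, an established human T-cell leukemia line, killed by ferroptosis (an iron-dependent death by lipid peroxidation) with 0.5 µM of ML162, an inhibitor of the enzyme GPX4, for 14 h. Both groups share genotype and culture, and the sort and the co-culture were applied together, so that their parts in a difference cannot be told apart. No treatment with cells that died in another way, or with living cells, was analysed here.

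Total counts lay between 39326672 and 50532209 per library, and a floor of 3 counts corresponded to between 0.0607 and 0.0785 CPM (counts scaled to the effective library size), a bound on counting error alone, since PCR copies could not be told from separate molecules. Replicates 1 and 2 of each group differed from replicates 3 and 4 across many genes, and values within each such pair are given for the members and for the pathway genes named. A gene counts as called where the edgeR fit gave an adjusted p no higher than 0.05 and a log2 fold change of BMDC-fer over BMDC of at least 0.58 in size. Itgax, which encodes the dendritic cell integrin CD11c, was at 1111 CPM in untreated BMDC against 1033 CPM in BMDC-fer. Each of the other 6 markers on the dendritic cell list had a lower mean in BMDC-fer, with log2 fold changes of -4.06 for Flt3, which was called, and of -2.78 for Cd209a, -2.02 for Zbtb46, -2.003 for Ciita, -1.62 for H2-Ab1 and -1.15 for Cd74, which were not. Cd209a, Zbtb46, Ciita, H2-Ab1 and Cd74 did pass both call thresholds in edgeR fits of each replicate pair alone. Their log2 fold changes were -2.78 to -1.02 within replicates 1 and 2 and -2.55 to -0.81 within 3 and 4. An edgeR fit that took the replicate number into account also called each of them lower. In both groups these genes were higher in replicates 1 and 2 than in 3 and 4, and their ranges overlapped between the groups. The list summed to 6356 to 14814 CPM in BMDC and to 3047 to 7212 CPM in BMDC-fer, with overlapping ranges. T-cell markers summed to 36.5 to 43.9 and to 35.6 to 56.8 CPM, mostly from Cd28, and 1 of 4 tested genes was called lower, Lck at a log2 fold change of -1.59. The T-cell receptor genes were low throughout, with Cd3e at 0.0514 and 0.0519 CPM, Cd3d at 0.216 and 0.0363 CPM and Cd3g at 1.73 and 0.135 CPM (means of BMDC and of BMDC-fer). Markers of mature dendritic cells had a summed level of 424 to 483 CPM in BMDC and 51.9 to 260 CPM in BMDC-fer, with 2 of 6 tested genes called lower. Il4i1, the 1 listed gene that was not tested, had 0 to 4 counts per library. Marcksl1 had a log2 fold change of 0.22 within replicates 1 and 2 (adjusted p = 0.377 in edgeR) and of -1.95 within 3 and 4. The other tested genes of the list were lower within both pairs. Neutrophil markers summed to 44.8 to 261 CPM in BMDC and to 13.9 to 43.7 CPM in BMDC-fer, with 4 of 8 called lower. Markers of mast cells and basophils summed to 15.5 to 44.9 CPM and to 5.83 to 14.5 CPM, with 0 of 3 tested genes called by edgeR, 2 called by DESeq2 and 3 at an unadjusted p under 0.05. Each of these 3 sums was lower in every BMDC-fer library, as were Jak2, Stat3 and Stat4, and their part in those differences was not tested. Markers of NK cells, which also express Stat4, summed to between 0.599 and 5.71 CPM in BMDC and to between 0.245 and 0.688 CPM in BMDC-fer. Of the 8, 5 (Ncr1, Gzma, Gzmb, Prf1 and Eomes) were at or under the floor in all 8 libraries. The 1 tested gene, Klrd1, went from 2.23 ± 2.09 to 0.241 ± 0.219 CPM (SD, n = 4), with overlapping ranges. Its log2 fold change of -3.16 was not called by edgeR, at an unadjusted p under 0.05. DESeq2 and a fit with the replicate number as a block called Klrd1 lower, and the part of NK cells in the Stat4 difference was not tested. In bulk samples such as these, fewer cells of a type and less RNA per cell cannot be told apart.

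Janus kinases are tyrosine kinases bound to the inner tails of cytokine receptors. When a cytokine brings receptor chains together, the kinases phosphorylate each other and the receptor, STAT factors dock there and are phosphorylated in turn, and paired STAT molecules enter the nucleus and bind DNA. Jak2 serves the receptors for GM-CSF, IL-3, interferon gamma and IL-12, and GM-CSF, the cytokine that keeps these cultures growing, acts largely through Jak2 and the Stat5 factors. Stat4 is the factor of IL-12 signalling, Stat3 of IL-6 and IL-10, and Stat6 of IL-4 and IL-13.

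The upstream sequences of the members that differed without overlap between the groups are shown so that a reader can see what precedes their starts. Each is the 250 bases before the annotated start in RefSeq (GRCm38.p6), written 5′ to 3′ on the strand of the gene. Capitals mark a GC box, searched as GGGCGG on both strands. They also mark the promoter element known as the CCAAT box on both strands. The ETS-type core in capitals was searched as GGAAGT, again on both strands, and no marked motif overlaps another in the windows shown. The Jak2 window is chr19:29251553-29251802 (plus strand, 80.8% G and C), the Stat4 window is chr1:51986898-51987147 (plus, 51.6%), the Stat3 window is chr11:100939541-100939790 (minus, 60.8%) and the Stat6 window is chr10:127642736-127642985 (plus, 56.8%).
Jak2: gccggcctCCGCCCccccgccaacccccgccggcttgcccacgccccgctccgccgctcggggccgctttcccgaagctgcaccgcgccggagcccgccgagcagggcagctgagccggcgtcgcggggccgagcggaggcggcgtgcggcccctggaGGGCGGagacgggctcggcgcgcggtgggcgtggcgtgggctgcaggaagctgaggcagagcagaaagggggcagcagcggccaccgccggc
Stat4: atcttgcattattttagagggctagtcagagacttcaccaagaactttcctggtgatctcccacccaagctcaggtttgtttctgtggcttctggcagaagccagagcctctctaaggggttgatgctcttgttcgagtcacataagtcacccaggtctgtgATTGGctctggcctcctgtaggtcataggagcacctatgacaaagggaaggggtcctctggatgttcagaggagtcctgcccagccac
Stat3: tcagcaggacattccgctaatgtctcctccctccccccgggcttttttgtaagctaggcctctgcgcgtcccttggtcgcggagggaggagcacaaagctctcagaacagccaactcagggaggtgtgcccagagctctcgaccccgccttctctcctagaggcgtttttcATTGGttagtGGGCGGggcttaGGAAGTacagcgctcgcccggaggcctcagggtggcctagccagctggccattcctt
Stat6: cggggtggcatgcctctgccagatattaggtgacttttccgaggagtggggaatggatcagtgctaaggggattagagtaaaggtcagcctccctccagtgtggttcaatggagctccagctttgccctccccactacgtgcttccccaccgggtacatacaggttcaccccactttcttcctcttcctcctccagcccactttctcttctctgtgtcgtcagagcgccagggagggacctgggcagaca
The Jak2 window holds 2 GC boxes, a motif found in 32.7% of 32851 such windows. The Stat4 window shown, before the first of its 2 annotated starts, holds 1 CCAAT box, found in 33.8% of all windows, and no GC box. The window before the other start (chr1:52007990-52008239, not shown) holds 1 ETS core and neither of those boxes. The Stat3 window holds 1 GC box, 1 CCAAT box and 1 ETS core, the last found in 19.7% of all windows. None of the motifs searched is in the Stat6 window. A motif bound by STAT pairs, TTCNNNGAA, is in 0 of the 12 windows of the 9 members and in 7.02% of all windows, and TATAAA is in 0 of the 12 and in 12.4% of all. Forms of the STAT motif with another spacing were not searched. Such matches describe letters in these windows and no binding was measured.

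Within the Janus kinases Jak2 stood apart. The gene (ENSMUSG00000024789, chr19:29251828-29313080 in GRCm38, plus strand) had levels of 463, 371, 405 and 388 CPM in BMDC replicates 1 to 4 and of 142, 97.8, 82.2 and 76.8 CPM in BMDC-fer replicates 1 to 4. The groups did not overlap, and the lowest untreated library was above the highest BMDC-fer library by a wide margin. The mean went from 407 ± 40.2 to 99.7 ± 29.5 CPM (SD, n = 4), or to 24.5% of the BMDC level, a log2 fold change of -2.03 (standard error 0.20). It was -1.79 within replicates 1 and 2, against -2.30 within 3 and 4, and BMDC-fer replicate 1 kept the highest Jak2 level of its group. Of the tested genes, 359, or 2.33%, had a lower log2 fold change.

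The other 3 kinases moved far less. Jak1, which most cytokine receptors use beside another Janus kinase, was at 188, 235, 229 and 221 CPM in BMDC and at 181, 202, 222 and 209 CPM in BMDC-fer. The ranges overlapped, and the log2 fold change was -0.10 (standard error 0.11), at -0.14 within replicates 1 and 2 against -0.05 within 3 and 4. Tyk2, the kinase of the receptors for type I interferon, IL-12 and IL-23, was at 155, 159, 91.5 and 98.5 CPM in BMDC and at 104, 87.0, 94.1 and 98.4 CPM in BMDC-fer. Only BMDC replicates 1 and 2 were high, so that the log2 fold change of -0.39 (standard error 0.19) came with -0.71 within replicates 1 and 2 but 0.03 within 3 and 4. Jak3, the partner of the common gamma chain, was the lowest of the kinases per length and was at 24.2, 28.2, 26.1 and 28.6 CPM in BMDC and 18.7, 21.6, 21.7 and 24.6 CPM in BMDC-fer. Its ranges met only at BMDC replicate 1 and BMDC-fer replicate 4, and the log2 fold change was -0.31 (standard error 0.12), at -0.37 and -0.23 within the replicate pairs.

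**Figure D1:**
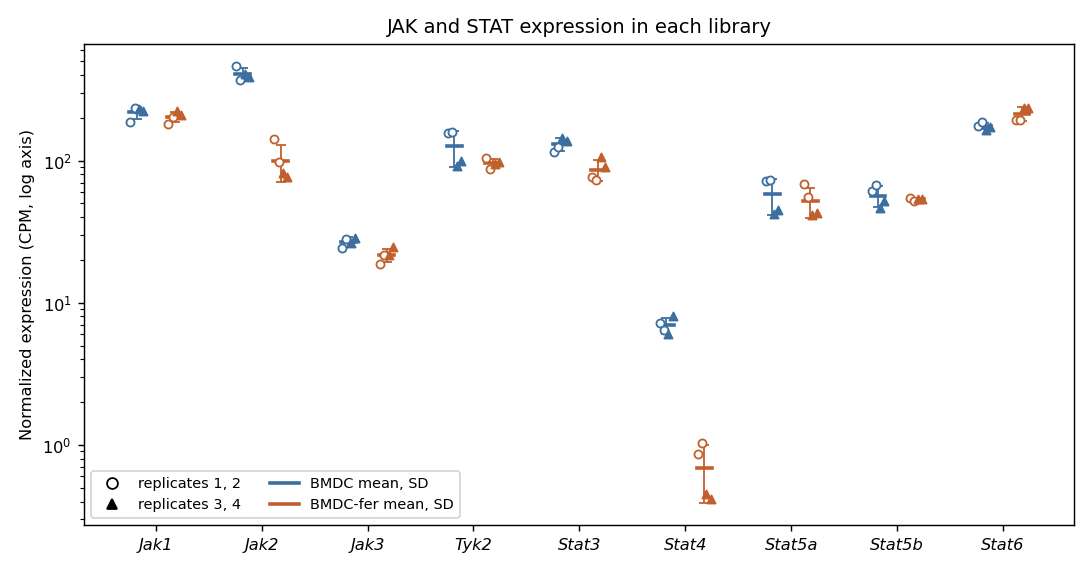
Level of each member in every library, in CPM on a log axis, with BMDC in blue and BMDC-fer in orange; circles are replicates 1 and 2, triangles replicates 3 and 4, and bars the mean with the SD of 4 libraries. Jak2 and Stat4 lie far below their BMDC values in all 4 BMDC-fer libraries, Stat3 lies lower by less, and Stat6 lies higher.

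The order of the kinases changed with the fall of Jak2. Per length (FPKM over the union of exons), Jak2 led in BMDC with 80.8 ± 7.99, followed by Jak1 with 30.2 ± 2.94, Tyk2 with 18.4 ± 5.25 and Jak3 with 5.005 ± 0.384 (SD, n = 4), and no neighbours in that order overlapped. In BMDC-fer Jak1 led with 28.2 ± 2.41 FPKM and Jak2 followed with 19.8 ± 5.87, with overlapping ranges. Tyk2 at 13.97 ± 1.06 and Jak3 at 4.04 ± 0.444 FPKM kept their places. The kinases together went from 134 ± 7.76 to 65.99 ± 3.997 FPKM, lower in every BMDC-fer library. Jak2 held 63.4, 54.7, 61.7 and 60.5% of that sum in the BMDC libraries and 39.2, 30.3, 25.2 and 24.2% in the BMDC-fer libraries. The shares of Jak1 (22.6 to 42.9%), Tyk2 (13.6 to 21.2%) and Jak3 (3.74 to 6.17%, means) were higher in every BMDC-fer library, although none of these 3 genes had a higher mean level there.

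Ratios within a library do not depend on the scaling between libraries. The log2 ratio of Jak2 to Jak1, taken per length, was 1.83, 1.18, 1.35 and 1.33 in BMDC and 0.18, -0.52, -0.91 and -0.92 in BMDC-fer. The mean difference was -1.97, and it was -1.75 against Jak3 and -1.71 against Tyk2. In each of the 3 ratios the 2 groups did not overlap. The changes of Jak1, Jak3 and Tyk2 between the groups thus lay far closer to one another than to the change of Jak2.

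**Figure D2:**
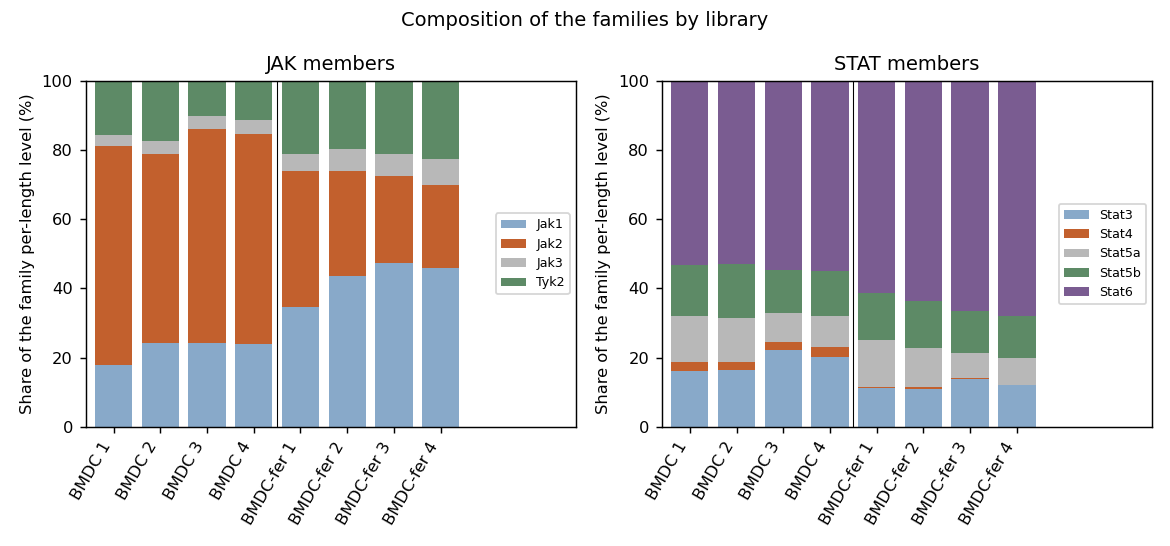
Share of each gene in the summed per-length level of the 4 Janus kinases (left) and of the 5 STAT factors (right), in percent, with one bar per library and a line between the BMDC and BMDC-fer libraries. Jak2 shrinks from 60.1% to 29.7% of the kinases on average, and Stat6 widens from 54.0% to 64.9% of the STAT factors while Stat4 nearly vanishes.

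Among the STAT factors Stat4 had by far the largest difference, and Stat3 had a smaller one of the same sign. Stat4 (ENSMUSG00000062939, chr1:51987148-52107189, plus strand) was at 7.17, 6.47, 6.03 and 8.03 CPM in BMDC, from 311, 307, 255 and 322 counts. In BMDC-fer it was at 0.870, 1.03, 0.455 and 0.419 CPM, from 43, 42, 19 and 16 counts, above the floor of 3 counts in each library. The groups did not overlap, and BMDC-fer replicates 3 and 4 were the lowest. The mean went from 6.92 ± 0.874 to 0.693 ± 0.303 CPM (SD, n = 4), or to 10.0% of the BMDC level. The log2 fold change was -3.31 (standard error 0.33), at -2.84 within replicates 1 and 2 against -3.98 within 3 and 4, and 50 tested genes, or 0.324%, had a lower one. Stat4 was low among the STAT factors from the start, at 1.79 ± 0.226 FPKM in BMDC.

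The remaining STAT factors lay much closer to their BMDC levels. Stat3 (chr11:100885098-100939540, minus strand) was at 115, 125, 144 and 138 CPM in BMDC and at 76.9, 72.4, 106 and 90.4 CPM in BMDC-fer, with every BMDC-fer library below every BMDC library. Its log2 fold change was -0.59 (standard error 0.14), close to the threshold of 0.58 for a call and at -0.68 and -0.51 within the replicate pairs, and it was called in 3 of the 8 fits that leave out 1 library. The call was lost without BMDC replicates 3 or 4 or without BMDC-fer replicates 1, 2 or 4, with log2 fold changes from -0.70 to -0.52 over the 8 fits. Stat6 (chr10:127642986-127660957, plus strand) was at 175, 186, 165 and 173 CPM in BMDC and at 193, 193, 234 and 235 CPM in BMDC-fer, and it was the single member that was higher in every BMDC-fer library. Its log2 fold change was 0.29 (standard error 0.11), at 0.10 within replicates 1 and 2 against 0.49 within 3 and 4.

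The Stat5 factors, through which GM-CSF acts, overlapped between the groups. They lie 8626 bases apart on chromosome 11, next to Stat3, whose exons share 72 bases with those of Stat5a on the opposite strand. Stat5a was at 71.2, 73.3, 42.1 and 44.6 CPM in BMDC and at 68.0, 55.7, 41.5 and 42.4 CPM in BMDC-fer. Replicates 1 and 2 were high in both groups, and the log2 fold change was -0.16 (standard error 0.24), at -0.22 and -0.03 within the replicate pairs. Stat5b was at 60.6, 67.8, 46.3 and 52.0 CPM in BMDC and at 54.1, 51.6, 53.7 and 53.7 CPM in BMDC-fer. The BMDC libraries spread around the narrow range of the BMDC-fer libraries, with a log2 fold change of -0.09 (standard error 0.13), at -0.27 within replicates 1 and 2 but 0.14 within 3 and 4.

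Per length, Stat6 led the STAT factors in both groups, with 39.7 ± 1.93 FPKM in BMDC and 48.6 ± 5.49 FPKM in BMDC-fer. Stat3 followed in BMDC with 13.7 ± 1.37 FPKM, and its range overlapped that of Stat5b at 10.2 ± 1.71, which overlapped that of Stat5a at 8.11 ± 2.35. In BMDC-fer, Stat5b (9.62 ± 0.203), Stat3 (9.07 ± 1.59) and Stat5a (7.28 ± 1.76) overlapped in that order, and Stat4 was last at 0.179 ± 0.0782 FPKM. The sum over the 5 factors was 73.5 ± 4.73 FPKM in BMDC and 74.7 ± 5.46 FPKM in BMDC-fer, with overlapping ranges. Stat4 made up 2.44% of that sum in BMDC and 0.246% in BMDC-fer, Stat3 18.8% and 12.1%, and Stat6 54.0% and 64.9%.

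The log2 ratio of Stat4 to each of the other 4 STAT members was lower in every BMDC-fer library. The mean difference was -2.82 against Stat3, -3.28 against Stat5a, -3.35 against Stat5b and -3.71 against Stat6. Against Stat2, an interferon-linked factor that is not a member, it was -3.59. Stat2 was at 97.0 ± 61.8 and 99.3 ± 44.3 CPM, with a log2 fold change of 0.03, at -0.12 and 0.49 within the replicate pairs, and an adjusted p of 0.972 (edgeR quasi-likelihood, adjusted by Benjamini-Hochberg).

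**Figure D3:**
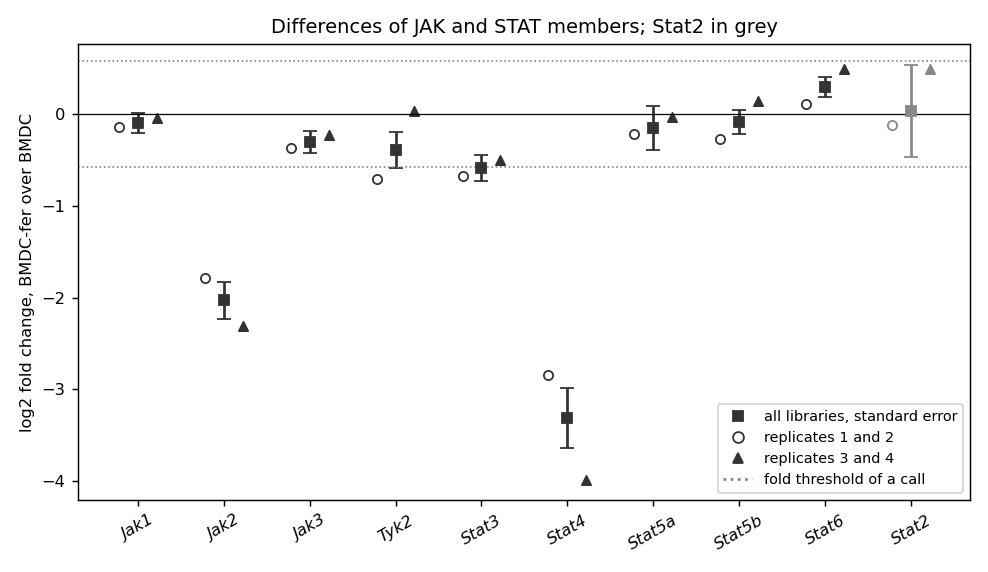
Log2 fold change of BMDC-fer over BMDC for the 9 members and, in grey, for Stat2; squares show all libraries with the standard error, circles replicates 1 and 2, triangles replicates 3 and 4, and dotted lines the fold threshold of 0.58. Jak2 at -2.03 and Stat4 at -3.31 lie far below the other members, which lie between -0.59 and 0.29.

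Of the 9 members, 3 were called lower (Jak2, Stat4 and Stat3), beside 5.91% of all tested genes. None was called higher by edgeR or DESeq2, beside 3.47% of all tested genes in edgeR, and 6 were not called. The ranges of the groups did not overlap for the same 3 genes, against 11.6% of tested genes that were lower in every BMDC-fer library, and for Stat6, against 11.3% that were higher. Because Jak2 and Stat4 put these families forward, nothing is read from these shares.

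The coding genes next to Jak2 on the chromosome were not called. Rcl1, 107898 bases before Jak2, had a log2 fold change of -0.22 (adjusted p = 0.346 by edgeR), and Insl6, 8263 bases after it, had -0.16 (adjusted p = 0.860 by edgeR). Insl6 went opposite ways in the replicate pairs, with 0.66 within replicates 1 and 2 (adjusted p = 0.0188 by edgeR) and -0.45 within 3 and 4 (adjusted p = 0.00254 by edgeR). Rcl1 was at -9.8e-05 within replicates 1 and 2 and at -0.45 within 3 and 4. The annotated transcript Gm28177 shares 1033 exon bases with Stat4, 26.7% of its exon length, on the same strand, and 28.6% of the 50-base words of Stat4 also occur in Gm28177. Its own count was at most 3 in any library. How reads in that stretch were assigned is not given in the sources used here, so the level of Stat4 is uncertain to that extent. Stat5a and Stat5b share 10.8% and 11.8% of their 50-base words with each other, while Jak1, Jak2, Tyk2 and Stat6 share none with another gene.

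The genes whose pattern over the 8 libraries was most like that of Jak2 were Fam129a (Pearson r = 0.999 of log2 CPM, among 11179 genes), Fscn1 (0.997), which bundles actin in mature dendritic cells, and Asap1 (0.996). Those most like Stat4 were Stil (0.992), Mtmr1 (0.992) and Gm266 (0.991). Jak2 and Stat4 correlated with each other at 0.982, and the points share the difference between the groups and the libraries' preparation. Jak2 correlated with Stat3 at 0.76, with Stat6 at -0.88 and with Jak1 at 0.20 over the same libraries.

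The surroundings of the members in the pathway were examined through lists of other STAT factors, receptors, cytokines, inhibitors, adaptors, targets and other kinases, 104 genes in all, of which 95 were tested. Of these 6 fell, or 6.32%, and 4 rose, or 4.21%, close to the shares among all tested genes, and their median log2 fold change was 0.02 beside 0.00 for all tested genes. With the replicate block 20 were called in place of 10, the additions including Il2ra, Bcl2l1, Il11ra1, Ccnd2, Ccl17, Mgl2, Lifr, Il7r and Myc. Of the 10 genes, 3 (Il23r, Il21r and Il10rb) were called in each of the 8 fits that leave out 1 library. The other 7 lost the call in 5 to 7 of them: 7 without BMDC replicate 3, 7 without BMDC-fer replicate 4, 6 without each of BMDC replicate 4 and BMDC-fer replicates 2 and 3, 5 without BMDC-fer replicate 1, and 4 and 3 without BMDC replicates 1 and 2.

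Among 11 tested receptor genes that signal through Jak2, 2 fell and 1 rose, with a median log2 fold change of 0.03. Il12rb2, the signalling chain of the IL-12 receptor that docks Stat4, fell from 17.1 ± 3.29 to 10.1 ± 2.36 CPM (log2 fold change -0.76, adjusted p = 0.0461). Il23r, the receptor for IL-23, fell from 0.472 ± 0.0327 to 0.134 ± 0.0573 CPM (-1.79, adjusted p = 0.0153), on 3 to 23 counts per library. Ifngr2, a chain of the interferon gamma receptor, rose from 87.1 ± 17.8 to 131 ± 4.16 CPM (0.59, adjusted p = 0.0343). The partner chains, named after their values were seen, were not called and had the opposite sign. Ifngr1 was at 149 ± 30.2 and 104 ± 7.37 CPM (-0.52, adjusted p = 0.0550), lower in every BMDC-fer library. Il12rb1 was at 3.12 ± 0.170 and 4.70 ± 1.92 CPM (0.59, adjusted p = 0.212), with overlapping ranges. Here and in the next lists, errors are SDs over 4 libraries per group, and the adjusted p-values come from the edgeR fit over all tested genes. Csf2rb, the common chain of the GM-CSF receptor and the highest of the list, was at 2134 ± 48.9 and 2755 ± 841 CPM and was not called (0.37, adjusted p = 0.289), nor was Csf2ra at 437 ± 94.2 and 531 ± 88.04 CPM (0.28, adjusted p = 0.342), which was named after its values were seen. Within replicates 1 and 2 and within 3 and 4, the log2 fold changes were -0.72 and -0.78 for Il12rb2, -1.85 and -1.70 for Il23r, 0.35 and 0.89 for Ifngr2, -0.09 and 0.74 for Csf2rb, and 0.40 and 0.21 for Csf2ra. In the same order they were -0.30 and -0.68 for Ifngr1 and 1.03 and -0.0049 for Il12rb1.

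Of 9 tested receptors of the common gamma chain and TSLP family, Il13ra1 fell from 54.1 ± 16.0 to 29.97 ± 5.59 CPM (log2 fold change -0.85, adjusted p = 0.0451 in edgeR) and Il21r rose from 153 ± 6.98 to 259 ± 36.8 CPM (0.75, adjusted p = 0.00910 in edgeR). Of 6 receptors for interferons and the IL-10 family, Il10ra, which signals through Jak1 and Stat3, fell from 195 ± 31.2 to 128 ± 9.10 CPM (-0.60, adjusted p = 0.0245 in edgeR). Ifnar1 rose from 108 ± 16.7 to 163 ± 14.8 CPM (0.59, adjusted p = 0.0253 in edgeR) and Il10rb from 75.02 ± 6.02 to 148 ± 14.3 CPM (0.98, adjusted p = 0.00268 in edgeR). None of 6 tested gp130 family receptors was called by edgeR (1 at an unadjusted p under 0.05 and 1 called by DESeq2, both times Lifr), with Il6st at 111 ± 16.9 and 122 ± 46.1 CPM. Il6st, the shared gp130 chain, went opposite ways in the replicate pairs, with -0.58 within replicates 1 and 2 (adjusted p = 0.00733 in edgeR) and 0.76 within 3 and 4 (adjusted p = 6.1e-05 in edgeR). None of 3 tested IL-12 family subunits was called by edgeR (0 at an unadjusted p under 0.05, 0 called by DESeq2), with Ebi3 at 25.1 ± 2.81 and 18.8 ± 6.81 CPM. Il12b, another of the 3, was named after its values were seen and also went opposite ways in the replicate pairs. It was at 0.50 within replicates 1 and 2 (adjusted p = 0.247 in edgeR) and at -3.29 within 3 and 4 (adjusted p = 1.4e-05 in edgeR). In the same order of pairs, the log2 fold changes were -0.69 and -0.94 for Il13ra1, 0.65 and 0.87 for Il21r, -0.32 and -0.85 for Il10ra, 0.51 and 0.72 for Ifnar1, 1.17 and 0.81 for Il10rb, and -0.03 and -0.91 for Ebi3.

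Inhibitors, adaptors and other kinases held no gene called by edgeR. The SOCS and CIS inhibitors, which are induced by STAT factors and shut the kinases off, had 0 of 8 called, 4 at an unadjusted p under 0.05, 1 called by DESeq2 (Socs1) and a median of -0.10, with Socs2 at 178 ± 26.8 and 143 ± 12.4 CPM. Phosphatases, PIAS proteins and other brakes had 0 of 12 called, 4 at an unadjusted p under 0.05, 0 called by DESeq2 and a median of -0.06. Their highest gene, Ptprc, which encodes CD45, had a log2 fold change of -0.46 with an adjusted p of 0.0455 in edgeR and missed the fold threshold. Adaptors and co-factors had 0 of 9 called (1 at an unadjusted p under 0.05, 0 by DESeq2), with Grb2 at 284 ± 33.6 and 293 ± 23.9 CPM. The other tyrosine kinases of myeloid cells had 0 of 10 called (1 at an unadjusted p under 0.05, 0 by DESeq2), with log2 fold changes between -0.13 and 0.42 and Syk at 401 ± 91.6 and 366 ± 22.5 CPM. Beside that range, the value of Jak2 was -2.03. Within the replicate pairs the log2 fold changes were -0.47 and -0.13 for Socs2, -0.56 and -0.32 for Ptprc, 0.29 and -0.17 for Grb2, and 0.12 and -0.31 for Syk.

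Target genes of the STAT factors were called in 2 cases. The lists do not say whether a factor raises or lowers a target, so nothing is read from them about STAT activity. Among 8 targets of Stat5, Bcl6, a transcriptional repressor, fell from 19.6 ± 7.35 to 8.19 ± 2.91 CPM (log2 fold change -1.25, adjusted p = 0.0351 in edgeR), and the list had a median of -0.43. Among 10 targets of Stat6, Ccl22, a chemokine of mature dendritic cells, fell from 545 ± 40.8 to 125 ± 113 CPM (-2.12, adjusted p = 0.0454 in edgeR), with a median of 0.10 over the list. Among 8 targets of Stat3 none was called by edgeR (1 at an unadjusted p under 0.05, 0 called by DESeq2), with a median of -0.01 and Mcl1 at 564 ± 47.5 and 566 ± 19.8 CPM. Ccl22 was at -1.30 within replicates 1 and 2 against -3.71 within 3 and 4, Bcl6 at -1.26 against -1.21 and Mcl1 at 0.16 against -0.12.

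**Figure D4:**
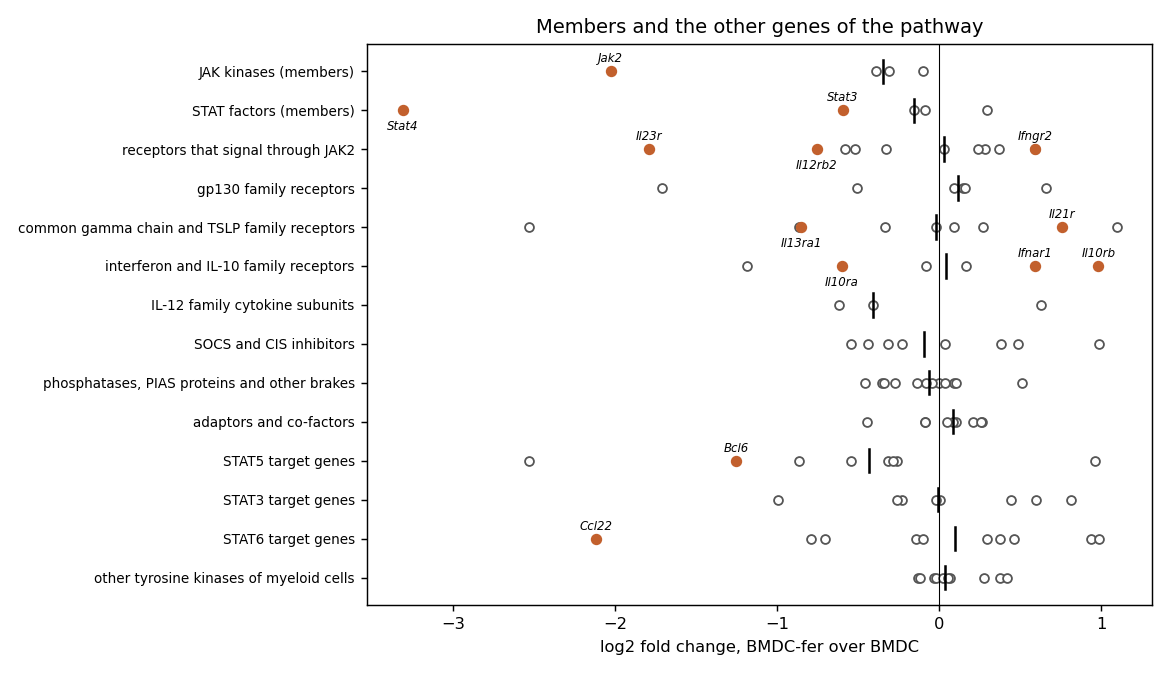
Log2 fold change of BMDC-fer over BMDC for each tested gene of the member families and of the lists of receptors, cytokines, inhibitors, adaptors, targets and other kinases; filled points are called genes and are named, open points are not called, and vertical strokes are list medians. Jak2 and Stat4 lie left of most pathway genes, 10 of which are called, 6 lower and 4 higher.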

How the data were processed

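RNA of 4 BMDC and 4 BMDC-fer libraries was sequenced by the authors after oligo(dT) selection, aligned with HISAT2 and counted per gene with featureCounts, and raw counts per mouse gene were deposited; the submitters' processing notes name mm10. The annotation, the strand setting and the handling of reads with several placements are not given in the sources used here. Columns were matched to samples by their labels, and 0 columns were left unused. No column holds the authors' comparisons.

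The count table was fitted with edgeR 4.0.16 under R 4.3.3 (TMM, filterByExpr with a count minimum of 10, quasi-likelihood test, Benjamini-Hochberg adjustment over 15411 genes). Calls required an adjusted p no higher than 0.05 together with a log2 fold change of at least 0.58 in either direction. CPM used TMM library sizes, and per-length levels were divided by the union of exons in GENCODE M21 (GRCm38). A level of 3 counts was taken as the floor. Where nothing says that libraries came from separate mice, p-values measure only the spread between these samples. All replicates differed beyond sampling noise, with a chi-square of 8.24 or more per gene. Same-numbered BMDC and BMDC-fer libraries deviated together (r = 0.446, 0.355, 0.313 and 0.343 across genes), but so did BMDC 3 with BMDC-fer 4 (0.343), BMDC 4 with BMDC-fer 3 (0.380), BMDC 1 with BMDC-fer 2 (0.287) and BMDC 2 with BMDC-fer 1 (0.186), so replicates 3 and 4 were not told apart by number. Each same-number r was over 0.1, but so were the other values just given, so these correlations cannot settle pairing by number. The main fit took the libraries as unpaired, so differences between replicates stay in its error, and a fit with the number as a block was an alternative. Others were DESeq2 1.42.0, 2 other normalizations, 2 other filters, each library left out, each replicate pair alone and longest-transcript lengths. On simulated data (15145 genes, 200 changed) edgeR made 134 calls, 9 of them false, and recovered 45.1% of 2-fold and 80.6% of 4-fold changes. The blocked fit made 113 calls, 6 of them false, and recovered 31.4% and 76.5%, while DESeq2 made 212 calls, 50 of them false, and recovered 67.6% and 94.9%. The simulated counts held no difference between replicates, unlike the real libraries. They therefore cannot tell how the block or the other fits fare on data with such a difference.

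The members and the gene lists were chosen with earlier results of these data known. Named genes were all members, the called genes of each list (at most the 2 lowest and 2 highest) or its highest gene where none was called, the 3 genes most like Jak2 and like Stat4, and the nearest coding neighbours of Jak2. Some genes covered by this rule are not reported here. Receptors of the list that failed the filter included Il5ra, Epor, Ghr, Prlr, Osmr and Il2rb, and of the cytokines Il12a and Il23a.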

Additional observations from a re-analysis of the deposited data

Results flagged for a closer look

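The Stat5b level of BMDC-fer replicate 2, 51.6 CPM, lay far from the other 3 BMDC-fer libraries relative to the range of that group: its gap was 0.8293 of the range. The whole range of the group was narrow, and 18 groups of 4 libraries were looked at for the members, of which 0.9 would be marked by chance at this level.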

How the results depend on the processing

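Without 1 library at a time the log2 fold change of Jak2 lay between -2.24 and -1.92 and that of Stat4 between -3.55 and -3.13. The number of genes called, 1445, was 2261 with DESeq2, 3062 in replicates 1 and 2 alone, 5604 in replicates 3 and 4 alone, 2000 with the replicate block, and 565 to 1440 without 1 library. The number of pathway genes called, 10, was 16 with DESeq2, 20 with the replicate block, 22 in replicates 1 and 2, 44 in replicates 3 and 4, and 3 to 9 without 1 library. The cause was not tested. The block changed the call of no member. Tyk2 turned to 0.032 in replicates 3 and 4, and Stat5b to 0.14 there and to 0.017 without BMDC replicate 2, in a range of -0.17 to 0.017 without 1 library. Stat2 turned to -0.20 and -0.21 without BMDC replicates 3 and 4, to -0.16 without each of BMDC-fer replicates 1 and 2, and to -0.12 in replicates 1 and 2, in a range of -0.21 to 0.39 without 1 library. Stat3 fell short of the fold threshold with upper quartile normalization (-0.57) and without a filter (-0.57), and in replicates 3 and 4 (-0.51). With the longest transcript as length, Stat5a and Stat5b exchanged places in the order of levels. Stat4 rests on 16 to 43 counts per BMDC-fer library, which limits its precision more than that of the other members.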
